A study of Mus musculus with 3 samples.

Results

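Genes that serve cells under osmotic stress were examined in immune cells of the healthy mouse kidney. They are *Slc6a12*, *Slc5a3*, *Slc6a6*, *Slc38a2*, *Akr1b3*, *Hspa4l*, *Nfat5* and *Sgk1*, 8 of the 32886 genes of the deposited count table. They were chosen by name for their known roles, with earlier results of these data known. The table held 20266 CD45-sorted cells in 23 clusters. Untreated wild-type male C57BL/6J mice aged 10 weeks gave the kidneys, which were cut into cortex, outer medulla, here OM, and inner medulla, here IM, at facilities in Aachen, Bonn and Hamburg. All groups shared genotype, sex, age and sort and differed in the compartment. The number of animals behind a library is not given in the sources used here.

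Salt and urea accumulate towards the tip of the renal medulla, and cells living there balance the outside tonicity with small organic osmolytes. NFAT5, a transcription factor activated by hypertonicity, turns on genes that import or make these osmolytes and genes of protective chaperones. Immune cells that reside in the medulla are exposed to the same milieu.

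The cells of 1 compartment and 1 facility formed 1 library, so that each compartment had 3 libraries (n = 3 facilities). UMIs are unique molecular identifiers, each standing for 1 captured transcript, and levels are given as CPM, a gene's UMIs per 1000000 UMIs of the same cells. For medulla, OM and IM were averaged with equal weight. Median depth per cell was 744 to 1270 UMIs in the Aachen libraries, which were made with an older 10x kit, 3209.5 to 3505 in Bonn and 2802 to 3067 in Hamburg. A pair of libraries shared at most 16 cell barcodes. Barcodes carried 6 suffixes in Aachen, 3 in Bonn and 1 in Hamburg, where the compartments shared 0 barcodes. Whether the Hamburg compartments were separate captures was not tested. Resident macrophages were the clusters Macrophage_1, Macrophage_2, Macrophage_3 and Isg+_Macrophage (5367 cells), and their defining marker genes summed to 23259 to 42714 CPM in the 9 libraries. The Aachen IM and the Bonn cortex stood apart in the make-up of this class. Macrophage_3 gave 1.17% of the resident macrophages in the Aachen IM, against 43.1% in the Bonn and 15.4% in the Hamburg IM. Macrophage_2 gave 83.3% and Macrophage_1 gave 4.45% in the Bonn cortex, against 35.5% and 59.3% in the Aachen and 32.8% and 57.8% in the Hamburg cortex. The edgeR tests of *Slc6a12* against the cortex in these cells are therefore given with and without each of these libraries. Orders of clusters cover the 20 with at least 20 cells at each facility, which leaves out B_cell_3, pDC and the undefined cells.

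*Slc6a12* encodes the betaine and GABA transporter BGT1, a gene known for its tonicity-responsive enhancer, the element that NFAT5 binds. Its promoter is shown because no other member was called between compartments. RefSeq promoter windows, from 250 bases before to 50 after an annotated start, were found for 6 of the 8 members (15 windows, build GRCm38.p6). The core of the enhancer, TGGAAA, was searched on both strands and occurred in 3 windows of 2 members, *Slc6a12* and *Sgk1*. It was held by 21.4% of the 32851 promoter windows of the same length, so its presence is common. The longer consensus of the tonicity-responsive enhancer contains this core and was matched in 4.96% of all windows. Among the members it was matched in 1 of the 15 windows, that of the first of 5 *Slc6a12* starts. That window follows with the core in capitals, read 5′ to 3′ on the plus strand at chr6:121342324-121342623, where the core lies 75 to 70 bases before the start. The *Sgk1* matches are given with their neighbouring bases. The first reads as TTTCCA because it lies on the minus strand.
Slc6a12, start 1: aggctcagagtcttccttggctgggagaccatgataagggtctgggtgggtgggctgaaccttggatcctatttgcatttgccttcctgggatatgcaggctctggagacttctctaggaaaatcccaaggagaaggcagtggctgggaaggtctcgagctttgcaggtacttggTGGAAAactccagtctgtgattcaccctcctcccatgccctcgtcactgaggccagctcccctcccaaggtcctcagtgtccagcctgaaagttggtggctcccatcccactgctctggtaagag
Sgk1, start 1: ccttgctttctcTTTCCAtttacctttctg
Sgk1, start 5: tcggagattagtTGGAAAaaaaagtgaaat

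*Slc6a12* (chromosome 6, 121343076 to 121365775, GRCm38) was a rare transcript, with 394 UMIs in 333 of the 20266 cells. Macrophage_1 held 38.5% of these UMIs and Macrophage_3 held 33.7%, and the resident macrophages together held 77.0%. Conventional dendritic cells (cDC) held 7.28%, T cells 1.83% and B cells 0.507%. By cluster, the level was 37.7 ± 16 CPM in Macrophage_3 and 26.5 ± 18 in Macrophage_1 (mean ± SD, n = 3 facilities). Next came 13.2 ± 3.2 in ILC2 (group 2 innate lymphoid cells), 10.1 ± 6.2 in Isg+_Macrophage, 8.30 ± 3.0 in Malat+_Macrophage and 6.21 ± 3.1 in cDC2. Malat+_Macrophage lies outside the resident macrophage class used here. Macrophage_2 held 2.46 ± 3.2 CPM, and its range of 0 to 6.09 overlapped that of Isg+_Macrophage (5.40 to 17.1). These levels pool compartments, of which the clusters held different shares. No UMI was seen in B_cell_2, B_cell_3, NK_cell_1, Malat+_T_cell, T_cell_3, T_cell_4, pDC or the undefined cells. ILC2 carried the transcript at all 3 facilities, from 2 UMIs in Aachen, 4 in Bonn and 9.14 in Hamburg. The clusters were built from these cells, so levels between clusters are described and not tested.

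In resident macrophages, *Slc6a12* rose in the medulla. Aachen gave 0 CPM in the cortex, 45.7 in the OM (82 UMIs) and 0 in the IM. Bonn gave 1.02 (3 UMIs), 29.6 (27 UMIs) and 44.1 (165 UMIs), and Hamburg gave 0, 10.2 (16.8 UMIs) and 9.99 (9.84 UMIs). All 3 cortex libraries lay below 5 of the 6 medullary libraries, and the Aachen IM at 0 was the exception. At the depth of the libraries without a UMI, 3 counts would amount to 3.96 CPM in the Aachen cortex, 3.15 in the Hamburg cortex and 4.42 in the Aachen IM. Both barcode suffixes of the Aachen IM held 0 UMIs, whereas both suffixes of the Aachen OM held the transcript at 35.4 and 63.3 CPM. Over all facilities, 301 medullary UMIs stood against 3 in the cortex, a ratio per UMI of 47.9 (95% interval 16.2 to 234, counting error only).

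**Figure D1:**
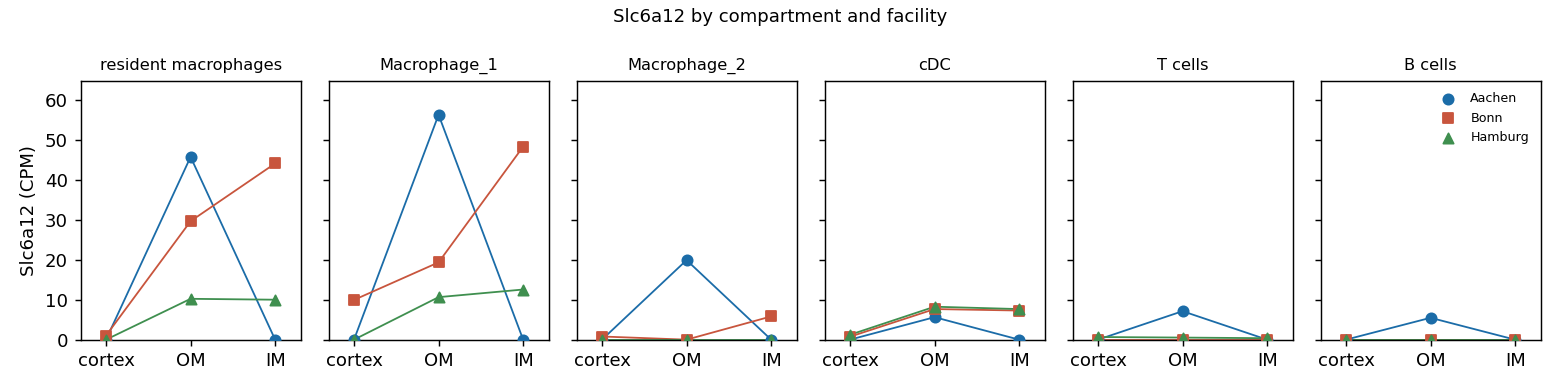
*Slc6a12* in CPM (vertical axis) in cortex, OM and IM (horizontal axis), with 1 point per library and lines joining the libraries of a facility. Medullary resident macrophages and Macrophage_1 reach 56.2, the Aachen IM lies at 0, and T and B cells stay at or below 7.12.

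edgeR's quasi-likelihood test with the facility as block gave *Slc6a12* a log2 fold change of 5.57 ± 0.90 (SE) for medulla against cortex in resident macrophages (adjusted p = 0.0122). The size of this fitted value depends on the prior count, since most cortex libraries held no UMI. The OM and the IM shared the same cortex libraries, and their own values were 5.82 ± 0.97 (adjusted p = 0.0176) and 5.32 ± 0.97 (adjusted p = 0.0436). Leaving out the Aachen IM library removes the only medullary value at 0. Without it edgeR gave 5.64 ± 0.43 for medulla (adjusted p = 1.86e-06), 5.42 ± 0.49 for the OM (adjusted p = 1.12e-05) and 5.86 ± 0.47 for the IM (adjusted p = 2.8e-06). Without the Bonn cortex the values were 7.85, 8.08 and 7.61 in the same order, and without the Bonn IM the IM value was 3.31. *Slc6a12* was the 1 member called of 7 tested in each of these contrasts, against 1.24%, 0.852% and 0.196% of 8687 genes called for medulla, OM and IM. Leaving out the facility block ended the call (adjusted p = 1.0), as did leaving out the cortex library of Bonn (0.163), which held the only cortical UMIs, all of Bonn (0.0920) or all of Hamburg (0.0857). The OM call was lost without the Bonn cortex (0.0962) or Hamburg (0.0890), and the IM call without the Bonn cortex (0.515). The IM call held only where the Aachen IM, the Aachen OM or all of Aachen was left out, with adjusted p-values of 0.0517 to 0.999 in the other 9 such fits.

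Macrophage_3 was itself mostly a medullary cluster. It made up 0%, 7.05% and 0% of cortical resident macrophages in Aachen, Bonn and Hamburg, and 44.7%, 42.9% and 23.0% of those of the OM. Its 38 cortex cells, all from Bonn, held 0 *Slc6a12* UMIs. In the OM it carried 49.1, 51.5 and 21.5 CPM at the same facilities, and in the IM 47.6 in Bonn and 14.1 in Hamburg, while the 7 cells of the Aachen IM held none. With Macrophage_3 left out, *Slc6a12* kept its direction with a log2 fold change of 5.26 but was no longer called (adjusted p = 0.0872). Within Macrophage_1 alone, the level was 0, 56.2 and 0 CPM in cortex, OM and IM of Aachen and 9.94, 19.3 and 48.3 in Bonn, whereas Hamburg gave 0, 10.6 and 12.5. The OM lay above the cortex at each facility, and the IM in Bonn and Hamburg, although the Bonn cortex value rests on 1 UMI in 24 cells. edgeR gave 4.52 ± 1.0 (adjusted p = 0.0241) with 1 of 7 tested members called, against 0.516% of 6978 genes. Without the Aachen IM the value was 5.19 (adjusted p = 0.000143), without the Bonn cortex it was 7.15 (adjusted p = 2.62e-05), and without the Aachen cortex it was 3.31. DESeq2 did not call it (adjusted p = 1.0), nor did edgeR without the replicate block (1.0), without the Aachen facility (0.251), without its cortex library (0.229), without the Hamburg facility (0.195) or without its IM library (0.139). In Macrophage_2 the gene had 8 medullary and 2 cortical UMIs and did not pass the filter on low counts. There edgeR called 0 of 6 tested members (1 at an unadjusted p under 0.05, 0 by DESeq2), against 0.02% of 4989 genes.

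Cells were also counted. In Bonn, 0.557% of resident macrophages held a *Slc6a12* UMI in the cortex, 11.9% in the OM (exact 95% interval 7.43 to 17.8%) and 19.8% in the IM (16.8 to 23.1%). T cells of the same facility held 0 UMIs in each compartment, at median depths of 3151 to 3301 UMIs per cell against 4194 to 4735 in the macrophages. Over all libraries, 8 of 5236 T cells and 2 of 4358 B cells held a UMI, and 3 of these T cells and both B cells came from the Aachen OM. T cells of that library read 7.12 CPM and B cells 5.47, against 45.7 in its resident macrophages. With each cell thinned to 500 UMIs, the share with a UMI was higher in the medulla by 0.967 percentage points (1.10 in Aachen, 1.31 in Bonn and 0.490 in Hamburg). The exact permutation test of compartments within facilities, two-sided, gave p = 0.185, and the smallest p of its 27 arrangements is 0.037. Without thinning the difference was 6.89 points (exact p = 0.0741), with 15.3 in Bonn against 1.90 in Aachen and 3.48 in Hamburg, and a mean of 2.69 without Bonn.

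Transcripts of kidney cells that the CD45 sort should remove were followed in the same macrophages. The proximal tubule markers summed to 158 to 211 CPM in cortical, 186 to 268 in OM and 180 to 381 in IM macrophages. Markers of the thick ascending limb, a tubule segment that runs through the medulla, reached 4.58, 8.20 and 41.0 CPM at most, those of the distal tubule and collecting duct stayed at or below 10.3, and podocyte markers were at 0 in all 9 libraries. *Kap*, a proximal tubule gene, was itself higher in medullary macrophages (log2 fold change 3.01 ± 0.53, edgeR adjusted p = 0.0174), in medullary B cells (3.76 ± 0.54, adjusted p = 0.00667) and in medullary cDC (5.04 ± 0.78, adjusted p = 0.00162). Medullary macrophages with a *Slc6a12* UMI held a kidney marker UMI in 23.0%, 87.8% and 40.0% of cells in Aachen, Bonn and Hamburg, against 21.7%, 80.7% and 50.1% of those without. These shares are not matched for depth. Median UMIs per cell were 955.5, 6802 and 3343 in cells with a *Slc6a12* UMI, against 827, 4408 and 3135 in those without. Leaving out all such marker-bearing cells kept 49 of 168 macrophages of the Bonn OM and 97 of 642 of the Bonn IM. In the cells kept, edgeR called *Slc6a12* for medulla (7.03, adjusted p = 0.0341) and the OM (7.52, adjusted p = 0.0243), not for the IM (adjusted p = 0.255). A cell without a marker UMI can still hold RNA of kidney cells, and the part of such RNA in these values was not tested.

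In cDC, antigen-presenting relatives of the macrophages, *Slc6a12* had few UMIs. Aachen gave 0, 5.62 and 0 CPM in cortex, OM and IM, Bonn gave 0.737, 7.65 and 7.28, and Hamburg gave 1.22, 8.24 and 7.65. In Bonn and Hamburg each medullary library lay above the cortex. The Aachen OM value is 1 UMI, and 3 counts would amount to 11.2 CPM in the Aachen cortex and 14.2 in the Aachen IM, so that no order could be read there. The ratio per UMI was 8.84 (27 against 2 UMIs, 95% interval 2.22 to 76.7). The medulla also lay above the cortex at all 3 facilities in the clusters Monocyte, Malat+_Macrophage and Macrophage_2. These held 3.79%, 3.03% and 2.54% of all *Slc6a12* UMIs. In the same order, the OM lay above the cortex at 3, 3 and 2 facilities, and the IM at 1, 1 and 2. In T cells the medulla was higher at 2 facilities and in B cells at 1. The difference was not tested in Monocyte and Malat+_Macrophage. The gene did not pass the filter on low counts in cDC, T cells or B cells, so the edgeR test was not made there. With no filter on low counts, edgeR gave a log2 fold change of 2.86 for medulla in cDC (adjusted p = 0.0962) and of 0.48 in T cells (adjusted p = 1.0), neither called. DESeq2 gave 2.81 in cDC with no adjusted p, and 1.53 for T cells and 1.02 for B cells, both with an adjusted p of 1.0. The difference between its medulla effects in resident macrophages and T cells was 6.12 ± 2.62 on the log2 scale (edgeR interaction, unadjusted p = 0.0300, adjusted p = 0.527), which did not pass. For B cells it could not be estimated, and for cDC it was not tested.

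*Slc6a6* encodes the taurine transporter TauT (chromosome 6, 91684053 to 91759066). Over the 20 clusters it was highest in those of macrophages, and a UMI was also found in 10.3% of T cells and 8.05% of B cells, against 26.6% of resident macrophages, at median depths of 2779, 2369 and 1574 UMIs per cell. Its level was 194 ± 64 CPM in Malat+_Macrophage, 177 ± 31 in Macrophage_3 and 161 ± 26 in Isg+_Macrophage, against 35 ± 5.9 in NK_cell_1 and 29.8 ± 3.5 in T_cell_3, a 6.52-fold range. Malat+_T_cell (83.2 ± 59) stood above cDC1 (60.7 ± 15). Although the ends of this order did not overlap, each cluster overlapped its neighbour in all 19 steps. In resident macrophages the cortex, OM and IM held 75.2, 142 and 87.0 CPM in Aachen and 158, 224 and 193 in Bonn, whereas Hamburg gave 109, 130 and 129. The OM was highest and the cortex lowest at each facility, yet the compartments overlapped between facilities. The log2 fold change for medulla was 0.42 ± 0.15 (unadjusted p = 0.0129, edgeR adjusted p = 0.257), and that for the OM was 0.56 ± 0.17 (adjusted p = 0.174), so neither passed. Over the 44 sums of a cell class and a library, *Slc6a6* and *Slc6a12* correlated at r = 0.71 and *Slc6a6* and *Slc38a2* at -0.79 (log2 CPM centred on the facility, sums that share libraries and depth).

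*Slc38a2* encodes SNAT2, a carrier of neutral amino acids that is induced by hypertonicity and by amino acid shortage (chromosome 15, 96687392 to 96699730). Over the 20 clusters it was highest in Malat+_T_cell (308 ± 130 CPM), NK_cell_2 (269 ± 99) and T_cell_1 (218 ± 84), and lowest in Macrophage_1 (85.5 ± 2) and cDC1 (70.8 ± 14). B_cell_3, outside them, held 324 CPM at 2 facilities. Resident macrophages held 89.8, 82.5 and 106 CPM in cortex, OM and IM of Aachen and 70.2, 115 and 92.7 in Bonn, whereas Hamburg gave 72.2, 101 and 68.6. The medulla lay slightly higher at each facility but the compartments overlapped, and the log2 fold change for medulla was 0.32 ± 0.15 (adjusted p = 0.518).

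*Slc5a3* encodes SMIT1, the sodium-coupled importer of myo-inositol (chromosome 16, 92058322 to 92087473), and was sparse, with a UMI in 523 cells. It reached 62.8 ± 62 CPM in Malat+_T_cell and 21.7 ± 25 in ILC2, where the SD was as large as the mean, and 18.1 ± 12 in T_cell_1. In resident macrophages it stood between 4.07 and 10.2 CPM in all 9 libraries, from 27 cortical and 82 medullary UMIs. It did not pass the filter on low counts there, and the ratio per UMI was 1.45 (95% interval 0.929 to 2.33).

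*Akr1b3* encodes aldose reductase, which makes the osmolyte sorbitol from glucose (chromosome 6, 34302434 to 34317478). Over the 20 clusters its level ran from 166 ± 31 CPM in T_cell_2 to 60 ± 22 in Neutrophils, a 2.77-fold range and the narrowest of the members. B_cell_3, outside them, held 48.6 CPM at 2 facilities. Resident macrophages held 95, 70.8 and 87.0 CPM in cortex, OM and IM of Aachen and 118, 92.2 and 115 in Bonn, whereas Hamburg gave 104, 98.0 and 95.7. The cortex was the highest of the 3 compartments at each facility, and the facilities overlapped, with a log2 fold change for medulla of -0.16 ± 0.12 (adjusted p = 0.740).

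*Hspa4l*, a chaperone of the heat shock protein 110 family also named osmotic stress protein 94 (chromosome 3, 40744495 to 40796103), had no steady leading cluster. Its mean of 172 ± 220 CPM in Neutrophils rested on 426 CPM in Aachen, from 6 UMIs in 25 cells, against 41.0 in Bonn and 50.5 in Hamburg. Resident macrophages of the cortex held 26.3 to 39.6 CPM, those of the OM 32.3 to 39.9 and those of the IM 31.0 to 42.7, and these ranges overlapped (log2 fold change 0.23 ± 0.17, adjusted p = 0.744). In B cells the medulla was lower at each facility, with a log2 fold change of -0.45 ± 0.19 (unadjusted p = 0.0341, adjusted p = 1.0). The difference between the macrophage and the B cell effect was 0.77 ± 0.27 (unadjusted p = 0.00477, adjusted p = 0.217) and was not called.

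*Nfat5* itself (chromosome 8, 107293470 to 107379517) was detected in every cluster. Over the 20 clusters it was highest in Malat+_T_cell (174 ± 100 CPM), Malat+_Macrophage (127 ± 89) and Neutrophils (104 ± 33), and lowest in cDC1 (23.8 ± 13). Outside them, B_cell_3 held 250 CPM and pDC 15.7, each at 2 facilities. Resident macrophages held 29.0, 30.7 and 25.1 CPM in cortex, OM and IM of Aachen and 42.4, 54.9 and 51.8 in Bonn, whereas Hamburg gave 36.4, 36.6 and 55.9. The medulla was above the cortex in Bonn and Hamburg and not in Aachen, and the log2 fold change was 0.26 ± 0.17 (adjusted p = 0.704). The count measures its mRNA, whereas NFAT5 is also regulated through its location in the cell and its modification, which were not measured.

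**Figure D2:**
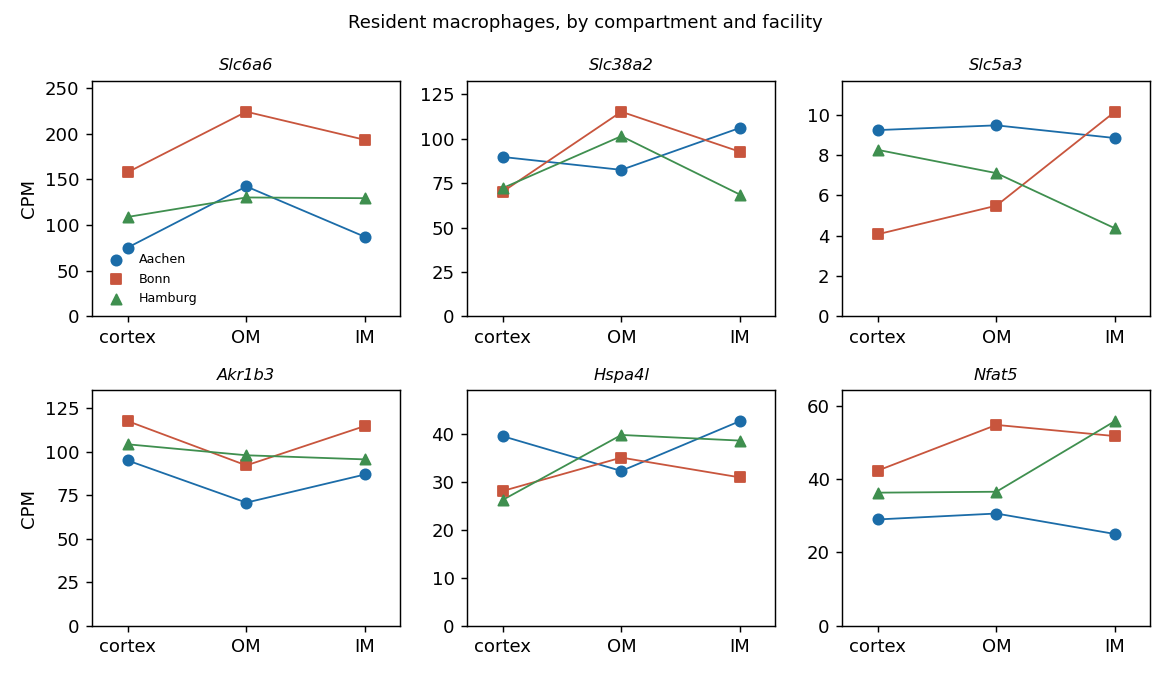
Levels of 6 members in resident macrophages in CPM (vertical axes, each starting at 0) in cortex, OM and IM, with 1 point per library and lines joining a facility. *Slc6a6* is highest in the OM at each facility, up to 224, *Akr1b3* is highest in the cortex at each facility, and compartments overlap in all 6.

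**Figure D3:**
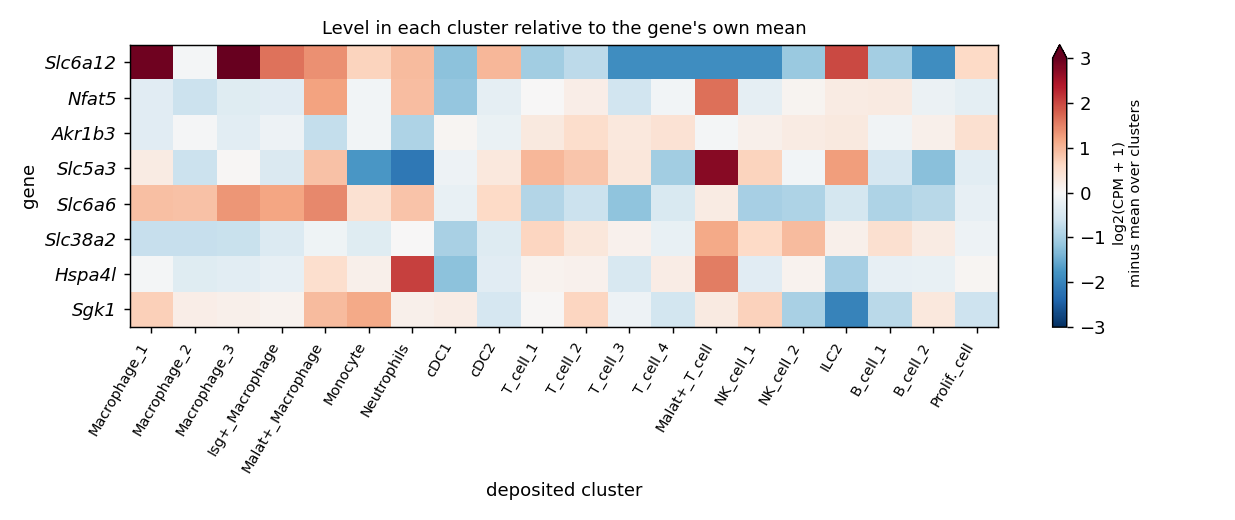
Level of each member (rows) in 20 deposited clusters (columns), as log2(CPM + 1) of the mean over facilities minus the gene's own mean over clusters. Colours end at 3 and -3. *Slc6a12* and *Slc6a6* lead in macrophage clusters, and *Slc38a2* in T and NK cell clusters.

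*Sgk1* encodes a kinase that responds to hypertonicity and glucocorticoids (chromosome 10, 21882184 to 21999903), and its level followed the facility. In resident macrophages, Hamburg held 220, 186 and 149 CPM in cortex, OM and IM, Aachen held 76.6, 20.6 and 84.0, and Bonn held 13.6, 22.0 and 19.0. Every Hamburg library lay above every other library. Across clusters, Hamburg was the highest in 19 of 20 and Bonn the lowest in 16 of 20, with medians over clusters of 140 CPM in Hamburg, 41.3 in Aachen and 17.0 in Bonn. The 12 immediate early genes, which cells switch on within minutes of handling, moved alongside in resident macrophages, with a summed level of 31587 to 34848 CPM in Hamburg, 10124 to 15824 in Aachen and 2524 to 9674 in Bonn. The 10 other heat shock chaperones gave 25871 to 34331, 12345 to 22288 and 5860 to 9091 CPM. The part of these genes in the level of *Sgk1* was not tested, and facility and preparation cannot be told apart. The older kit was that of Aachen, whose median lay between those of Hamburg and Bonn. Within facilities the compartments showed no common order of *Sgk1*, and medulla against cortex gave a log2 fold change of -0.29 ± 0.28 (adjusted p = 0.828).

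**Figure D4:**
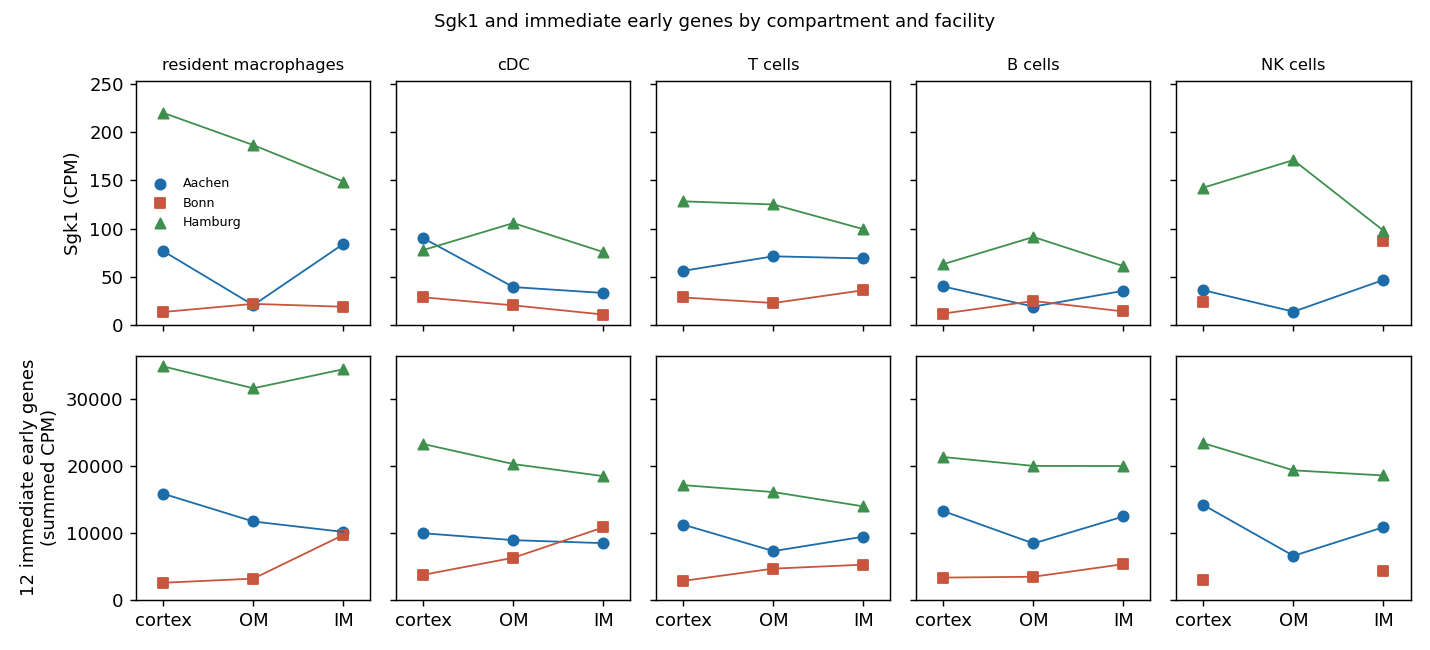
*Sgk1* (top) and the summed 12 immediate early genes (bottom), in CPM, in 5 cell classes, by compartment, with 1 point per library. NK cells of the Bonn OM (19 cells) are left out. Hamburg resident macrophages lie at 149 to 220 for *Sgk1*, above all libraries of Aachen and Bonn.

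Outside the resident macrophages, no member was called between compartments. In T cells edgeR and DESeq2 each called 0 of 7 tested members in every contrast, with 1 at an unadjusted p under 0.05 for the IM (*Nfat5*, log2 fold change 0.36) and 0 for the other contrasts. The shares of all 8957 genes called were 0.0335% for medulla, 0.0335% for the OM, 0.0558% for the IM and 0% for OM against IM. In B cells both tools called 0 of 7, with *Hspa4l* alone at an unadjusted p under 0.05 (-0.45 for medulla, -0.77 for the OM and -0.63 for OM against IM) and 0 for the IM, against 0.0898%, 0.0786%, 0.0673% and 0.0673% of 8911 genes for the same contrasts in that order. In cDC both called 0 of 7, with 0 at an unadjusted p under 0.05 for medulla and 1 each for the OM (*Nfat5*, 0.66), the IM (*Sgk1*, -0.68) and OM against IM (*Nfat5*, 0.70), against 1.81%, 0.987%, 1.06% and 0.11% of 7293 genes. Few genes of any kind were called in T and B cells, so a count of 0 members there lies near the background. *Slc6a6* was positive in all 4 classes (0.42 in resident macrophages, 0.33 in T cells, 0.10 in B cells and 0.25 in cDC), as was *Nfat5* (0.26, 0.22, 0.25 and 0.32). The classes share their libraries, and none of these values passed. The median log2 fold change of the tested members was 0.26 in resident macrophages, 0.04 in T cells, 0.10 in B cells and 0.25 in cDC, beside medians of all tested genes of 0.01, 0.00, 0.00 and -0.01.

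**Figure D5:**
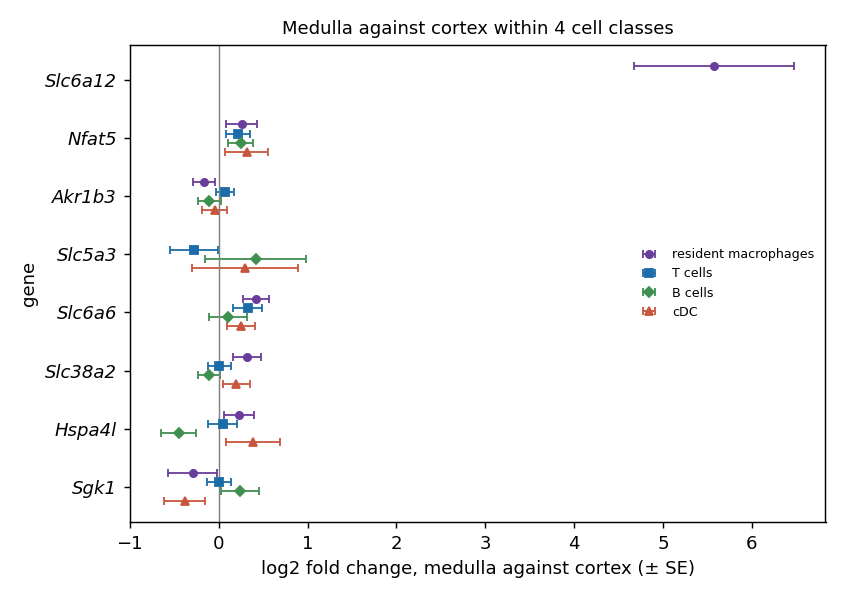
edgeR log2 fold change of medulla against cortex (horizontal axis, bars are ± SE) for each member in 4 cell classes. Members below the filter on low counts have no point. *Slc6a12* in resident macrophages lies at 5.57, and all other points lie between -0.45 and 0.42.

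OM and IM macrophages were also set against each other. *Slc6a12* differed by 0.50 ± 0.52 (log2, unadjusted p = 0.355), which turned to -0.44 ± 0.30 without the Aachen IM library (unadjusted p = 0.163). edgeR called 0 of 7 members there with 0 at an unadjusted p under 0.05, and also 0% of all genes (267 at an unadjusted p under 0.05). DESeq2 called 0 genes as well. Among differences between classes, 0 of 8 members were called for resident macrophages minus T cells (1 at an unadjusted p under 0.05) and 0 of 7 for resident macrophages minus B cells (2), against 0.44% of 10004 and 1.18% of 10099 genes. DESeq2 called 0 in both.

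The wider pathway was followed with lists chosen by function, also with earlier results of these data known. Of 11 osmolyte transporters, 5 were tested in resident macrophages and *Slc6a12* alone was called, against 1.24% of all genes, while the choline transporter gene *Slc44a1* had 0.72 ± 0.30 (adjusted p = 0.39). The lists of 18 enzymes that make or break down osmolytes (12 tested), 11 heat shock chaperones (11), 19 genes that activate or restrain NFAT5 (19) and 26 genes of cell volume and water transport (16) had 0 members higher or lower in the medulla. Of 16 NFAT5 targets reported in immune cells, 10 were tested and none was called in macrophages. *S100a4*, one of these targets and also a monocyte marker, rose in cDC (1.12 ± 0.19, edgeR adjusted p = 0.00325), in both the OM (1.29) and the IM (0.95). It was the 1 target called of 12 tested, against 1.81% of all genes for medulla, 0.987% for the OM and 1.06% for the IM. *Chka*, choline kinase, rose in IM cDC (1.09 ± 0.26, adjusted p = 0.0421), 1 of 12 tested enzymes against the same 1.06%. *Ltb*, the lymphotoxin beta gene, had a lower medulla effect in resident macrophages than in B cells (-0.78, adjusted p = 0.0462), 1 of 12 tested targets against 1.18% of all genes. In resident macrophages the median log2 fold change for medulla was 0.42 for the transporters, 0.13 for the enzymes, -0.09 for the chaperones and 0.01 for the NFAT5 regulators, beside 0.01 for all genes. The chaperone median was -0.41 for the OM (3 of 11 positive) and 0.05 for the IM (6 of 11).

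The genes most like each member were sought over the same 44 sums among 7997 genes. For *Slc6a12* they were *Fxyd2* (r = 0.79), which encodes the gamma subunit of the sodium-potassium pump, *Fam174a* (0.74) and *Gas6* (0.72), a ligand of the receptor MerTK. *Slc6a6* was followed most closely by *Ptafr* (0.91), *Rtn4* and *Rbm47*, and *Slc38a2* by *4921524J17Rik* (0.91), *Tprgl* and *Gem*. *Nfat5* lay nearest to the mitochondrial gene *mt-Nd2* (0.83), *Akr1b3* to *Pdcd1* (0.78), *Hspa4l* to *Smc1a* (0.74), *Slc5a3* to *Cyb561d2* (0.72) and *Sgk1* to *Abi1* (0.60). These values describe sums that share libraries, cell classes and depth, and the part of kidney cell RNA in them was not tested.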

How the data were processed

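Single-cell RNA-seq of CD45-sorted mouse kidney cells was analysed. The authors mapped reads to mm10 with Cell Ranger and filtered, integrated and clustered cells with Seurat. The deposited values are expected counts of UMIs per gene and cell, whole in Aachen and Bonn and estimated in Hamburg (0.118% of nonzero values whole), without scaling. Compartment, cluster and facility were taken from the same table. No doublet caller and no correction for free RNA was run here. Whether the Hamburg values had been corrected for free RNA before is not known.

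UMIs were summed per class and library and rounded to whole numbers. edgeR 4.0.16 (filterByExpr, TMM, glmQLFit, glmQLFTest; R 4.3.3) was fitted to all genes with facility as block, with Benjamini-Hochberg adjustment and a threshold of 0.05. The SE of an edgeR value was taken as the absolute log2 fold change divided by the square root of the F statistic. Facility pairs the libraries, since its 3 compartments share one site and kit. Deviations from the compartment means correlated at 0.86 to 0.96 within facilities (9 pairs) and at -0.87 to 0.49 between them (18 pairs, 2367 genes). Classes needed 20 cells in each of the 9 libraries, which NK cells did not reach (19 in the Bonn OM). Tested on simulated resident macrophage counts of 8687 genes, edgeR recovered 69% of 2-fold and 90% of 4-fold changes, with 17 false calls. For Macrophage_1 it recovered 51% and 78%, with 10 false calls among 6978 genes. The changed genes were drawn at random from all tested genes, so these shares do not describe a gene with as few UMIs as *Slc6a12*. p-values measure the spread between libraries. Alternatives were DESeq2 1.42.0, RLE size factors, no filter, no block, rounding up, thinned cells and cells, clusters or libraries left out.

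All 8 members were named in every comparison, other list genes where called (at most 10 a comparison), and the 3 genes most correlated with each member. Members and lists were chosen with earlier results of these data known. Gene positions are from GENCODE vM21 and promoters from RefSeq. Log2 CPM used a prior count of 2. Counting intervals are 95%.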

Additional observations from a re-analysis of the deposited data

How the results depend on the processing

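The call of *Slc6a12* in resident macrophages rests on few cortical UMIs and on the pairing of libraries by facility. Of the 8 members, 1 was called for medulla, OM and IM against cortex, and this count fell to 0 in all 3 contrasts without the replicate block or with Macrophage_3 left out, and for the IM also to 0 by DESeq2 and with marker-bearing cells left out. Over the 12 fits without a library or facility the counts were 0 to 1 in each contrast (3, 2 and 9 of 12 at 0), with a log2 fold change for medulla of 4.31 to 7.85, above 0 in 12 of 12. In Macrophage_1 the count fell to 0 by DESeq2 and without the replicate block, and was 0 to 1 over 9 such fits (4 at 0). DESeq2 gave no adjusted p for *Slc6a12* in the medulla and OM contrasts of the resident macrophages (unadjusted p = 7.58e-06 for medulla). Thinned to 500 UMIs the gene no longer passed the filter, as was the case in Macrophage_1 without Bonn, the Bonn IM or the Aachen OM.

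The block changed no call of the other members. Directions of uncalled values turned as follows. In thinned cells, *Akr1b3* and *Hspa4l* in resident macrophages were 0.076 and -0.055, *Slc38a2* in T cells -0.16 and *Slc6a6* in B cells -0.18. Without the block, *Slc38a2* and *Hspa4l* in T cells were -0.14 and -0.18. With marker-bearing cells left out, *Hspa4l* in T cells was -0.17, and *Slc6a6* and *Sgk1* in B cells were -0.17 and -0.050. Without a library or facility, the ranges were -0.50 to 2.06 for *Slc6a12* in OM against IM macrophages, -0.20 to 0.17 for *Slc38a2* and -0.12 to 0.20 for *Hspa4l* in T cells, -0.14 to 0.33 for *Slc6a6* in B cells and -0.010 to 0.83 for *Nfat5* in cDC. The causes were not tested. The cluster with the highest level was the same for 8 of 8 members when cells were weighted equally.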
